A study of Mus musculus with 16 samples.

Results

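The 9 genes described here are well known long noncoding RNAs of the nucleus or of the heart and its vessels. They are Malat1, Neat1, Miat, Carmn, Fendrr, Hand2os1, Gas5, Snhg1 and Mir22hg. They were found by symbol, and all 9 have a row among the 55487 genes counted in the series. RNA was sequenced from cultured heart slices of male mice aged 8 weeks. WT slices came from C57Bl6/J mice, and Swhtr null slices from mice homozygous for the Swhtr3xpA allele, in which a transcriptional stop signal shortens the long noncoding RNA Swhtr. Untreated slices spent 14 days in culture at 21% oxygen. Treated slices spent 7 days at 3% oxygen, after which oxygen was set to 21% for another 7 days. Each of the 4 groups holds 4 libraries. The slices came from 4 mice per genotype, and which library came from which mouse is not given, so p-values measure the spread between libraries and may treat slices of 1 mouse as independent.

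Long noncoding RNAs act as RNA and not through a protein. Malat1 lies in nuclear speckles, where splicing factors are stored, and Neat1 is the scaffold of paraspeckles, nuclear bodies built on RNA-binding proteins such as NONO and SFPQ. Gas5 and Snhg1 carry small nucleolar RNAs (snoRNAs, guides for the modification of ribosomal RNA) in their introns, and Mir22hg carries the microRNA miR-22. Carmn is a transcript of smooth muscle cells from the locus of miR-143 and miR-145. Hand2os1 and Fendrr are transcribed divergently from the genes of the transcription factors HAND2 and FOXF1, which act in the embryonic heart and mesoderm.

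Library totals ran from 17830351 to 29941903 counts. The 9 RNAs together took 0.220% to 0.294% of the counts of a library. The heart label was checked against defining markers, and heart muscle RNA was scarce. The 9 cardiomyocyte markers summed to 5.23 to 20.5 CPM (counts scaled to the library size) in untreated slices of both genotypes and to 6.88 to 96.3 CPM in treated ones, against 3947 to 12308 CPM for 8 macrophage markers over all libraries. The slices as sequenced thus gave few cardiomyocyte transcripts. In bulk RNA, fewer cells of a type and less RNA per cell cannot be told apart. Swhtr itself has no row in the count table, so the genotype was not checked from the counts.

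By mean CPM, which does not allow for length, Malat1 and Neat1 stood at ranks 1 and 2 of the 3628 long noncoding RNAs tested. Gas5 stood at rank 10, Mir22hg at 16, Snhg1 at 51, Hand2os1 at 87 and Carmn at 180. Fendrr at rank 1422 and Miat at rank 2615 were barely detected. Genes differ in length, so their levels were compared as RPKM, the CPM per kilobase of merged exons. Merged exons join all annotated transcripts of a gene. They cover 100% of the span of Snhg1, 91.3% of Gas5, 37.4% of Mir22hg and 14.5% of Carmn. For Gas5 and Snhg1 they take in introns that carry snoRNAs, and for Neat1 the length is that of the long form. The RPKM of Gas5, Snhg1 and Neat1 may thus be too low, and the order below depends on these lengths. Malat1 averaged 195 RPKM over the 16 libraries. Neat1 followed with 47.2 RPKM, Mir22hg with 37.8 RPKM and Gas5 with 31.5 RPKM. The ranges of these 3 neighbours overlapped. Neat1 was above Mir22hg in 13 of 16 libraries and Mir22hg was above Gas5 in 15 of 16. Snhg1 averaged 5.08 RPKM, Carmn 1.79 RPKM and Hand2os1 0.654 RPKM. Fendrr averaged 0.0842 RPKM and Miat 0.00724 RPKM. The order from Gas5 down to Miat held within all 16 libraries. Among the 3628 long noncoding RNAs, Malat1 ranked 2 by mean RPKM, Neat1 7, Mir22hg 9 and Gas5 11. Snhg1 ranked 69, Carmn 229, Hand2os1 658, Fendrr 2277 and Miat 3601.

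**Figure D1:**
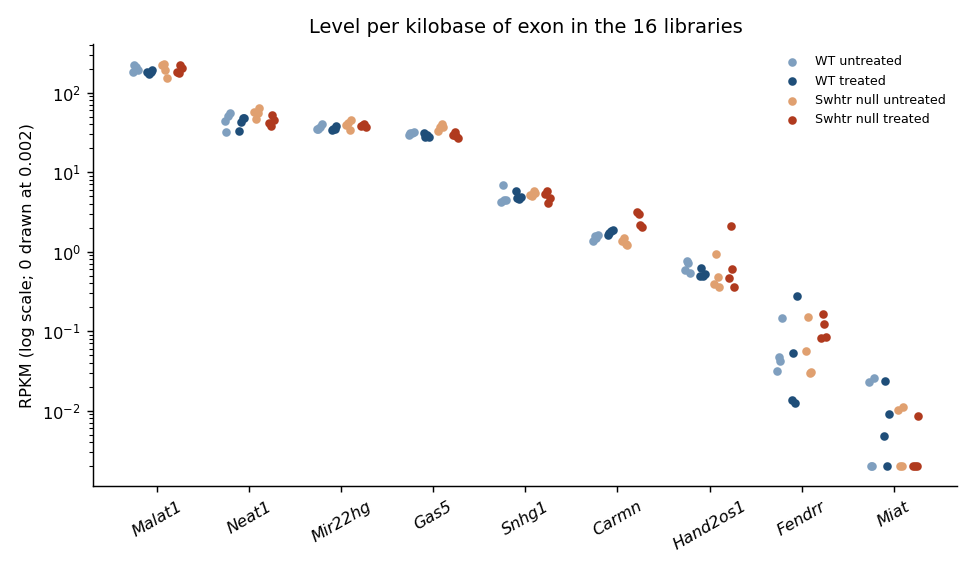
Level of each long noncoding RNA per kilobase of merged exon (RPKM, log axis) in the 16 libraries, 1 point per library, coloured by group; libraries without a count are drawn at 0.002. Malat1 lies between 155 and 229 RPKM, and Neat1, Mir22hg and Gas5 share one range below it.

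Of the 9 RNAs, 1 was called changed in treated Swhtr null slices. This was Carmn, which rose. None was called in treated WT slices, in either comparison between the genotypes, or in the difference between the responses of the genotypes. A gene was called at an adjusted p under 0.05 in edgeR's quasi-likelihood test and an absolute log2 fold change over 0.58. By that rule 0% of the 24971 genes tested were called in the response of WT slices, 0.621% in the response of Swhtr null slices, 0.1% between the untreated genotypes, 0.0921% between the treated genotypes and 0% in the difference of the responses. The response of WT slices held 1202 genes at an unadjusted p under 0.05, and DESeq2 called 9 and limma-voom 5 genes there. In the difference of the responses 1721 genes had an unadjusted p under 0.05, and 0 were called by either other tool. Among the long noncoding RNAs alone, 12 of 3628 were called in Swhtr null slices (0.331%), of which 3 rose and 9 fell. With the replicate number as a block, 616 genes instead of 155 were called in Swhtr null slices, and Carmn was again the single one of the 9.

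**Figure D2:**
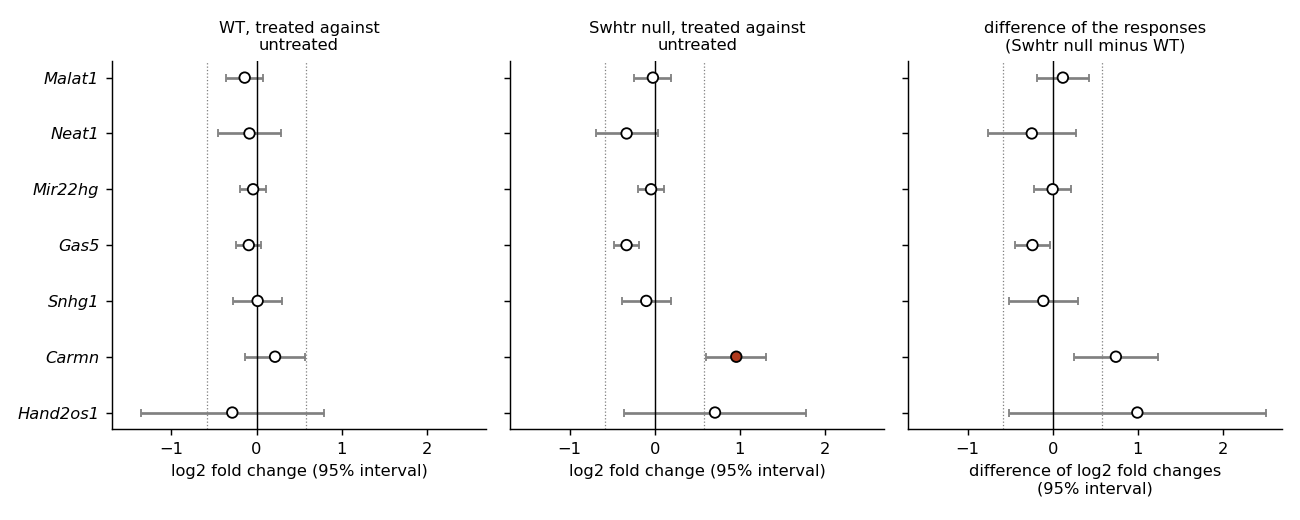
Log2 fold change with its 95% interval for the 7 long noncoding RNAs with a mean of at least 1 CPM, for treated against untreated WT slices, for treated against untreated Swhtr null slices, and for the difference of these responses; dotted lines mark 0.58 in either direction and a filled point marks a called gene. Carmn at 0.96 in Swhtr null slices is the filled point, and the interval of Gas5 lies below 0 there.

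Malat1 (ENSMUSG00000092341, GRCm38 chromosome 19, 5795690 to 5802672, minus strand) is annotated as 1 merged exon along its whole length. It measured 1257, 1541, 1483 and 1346 CPM in untreated WT slices. Treated WT slices measured 1283, 1193, 1287 and 1347 CPM. Untreated Swhtr null slices measured 1571, 1599, 1339 and 1082 CPM, and treated ones 1283, 1253, 1568 and 1407 CPM. The groups overlapped throughout, and the untreated Swhtr null libraries spanned both the highest and the lowest value. The log2 fold change with treatment was -0.14 (95% interval -0.36 to 0.08) in WT and -0.02 (-0.24 to 0.20) in Swhtr null slices. The 17 genes of nuclear speckles and splicing had 0 called in each comparison, with a median log2 fold change of 0.022 in treated Swhtr null slices against 0.012 over all genes. The protein-coding gene Frmd8, a neighbour of Neat1, had a log2 fold change of 0.11 there. Malat1 and the long form of Neat1 end without a poly(A) tail. The labels name a kit that selects poly(A) RNA and the study's methods one that removes ribosomal RNA, so the levels of both relative to other genes depend on which was used.

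Neat1 (ENSMUSG00000092274, chromosome 19, 5824708 to 5845478, minus strand) lies beside Malat1 and is likewise annotated as 1 merged exon. Untreated Swhtr null slices held 1171, 955, 1164 and 1346 CPM of Neat1, and treated ones 853, 796, 1102 and 938 CPM. Untreated WT slices held 910, 665, 1057 and 1152 CPM, and treated ones 682, 899, 991 and 1001 CPM. Neat1 had its highest value in an untreated Swhtr null library and its lowest in an untreated WT library, and all groups overlapped. Its log2 fold change with treatment was -0.33 in Swhtr null slices (SE 0.17, adjusted p = 0.355) and -0.08 in WT slices (SE 0.17, adjusted p = 0.999). The Swhtr null interval, from -0.70 to 0.04, allows a decrease past the threshold. Between Swhtr null libraries of the same replicate number, Neat1 was lower after treatment in 4 of 4 pairs, as were 13.0% of all genes tested, and with the replicate block its log2 fold change was -0.33 (SE 0.13, adjusted p = 0.209). Of 16 genes of paraspeckle proteins, 0 were called in Swhtr null slices, 12 were higher and 4 lower. In WT slices 0 were called, 11 were higher and 5 lower.

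Neat1 was set beside the macrophage markers library by library. The treated Swhtr null library with the lowest Neat1, 796 CPM, also had the lowest marker sum of the series, 3947 CPM. The untreated Swhtr null library with the highest Neat1, 1346 CPM, had the highest marker sum, 12308 CPM. The libraries lowest in Neat1 over the series did not follow this order, since untreated WT replicate 2 with 665 CPM and treated WT replicate 1 with 682 CPM had marker sums of 9208 and 9284 CPM. Over the 16 libraries, which share groups and mice, the 2 levels on the log2 scale had a Pearson r of 0.54 and a Spearman rho of 0.81, and r was 0.64 after the group means were subtracted. All 8 macrophage markers were lower in treated Swhtr null slices, with 0 called and a median log2 fold change of -0.526. In WT slices all 8 were lower with treatment as well, with 0 called and a median of -0.106. Other lists went with Neat1 as closely, among them the targets of hypoxia-inducible factor (r = 0.72), the paraspeckle proteins (r = -0.67) and the smooth muscle markers (r = -0.59). A list called partner transcription factors here (Foxf1, Hand2, Gata4, Gata6, Tbx5 and Myocd) had r = -0.81. Of its genes, Hand2 and Foxf1 are those divergent from Hand2os1 and Fendrr, and Myocd is also among the smooth muscle markers. The part of macrophage content in the Neat1 values was not tested. The gene whose level followed Neat1 best among 10649 genes was Slamf7, a receptor of immune cells (r = 0.953), followed by Rbpj (0.923), the DNA-binding factor of Notch signalling, and Gde1 (0.918), a phosphodiesterase.

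The gene most like Malat1 was Vps13d, which encodes a lipid transfer protein and lies on chromosome 4 (r = 0.945). The next genes, Phc3, a Polycomb protein, and Zyg11b, reached 0.776 and 0.772. Vps13d moved within a narrow range, from 85.3 CPM in the untreated Swhtr null library that was lowest in Malat1 to 107 CPM. After subtraction of the group means r was 0.95. Malat1 and Neat1 did not follow each other (r = -0.06, rho = 0.21).

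**Figure D3:**
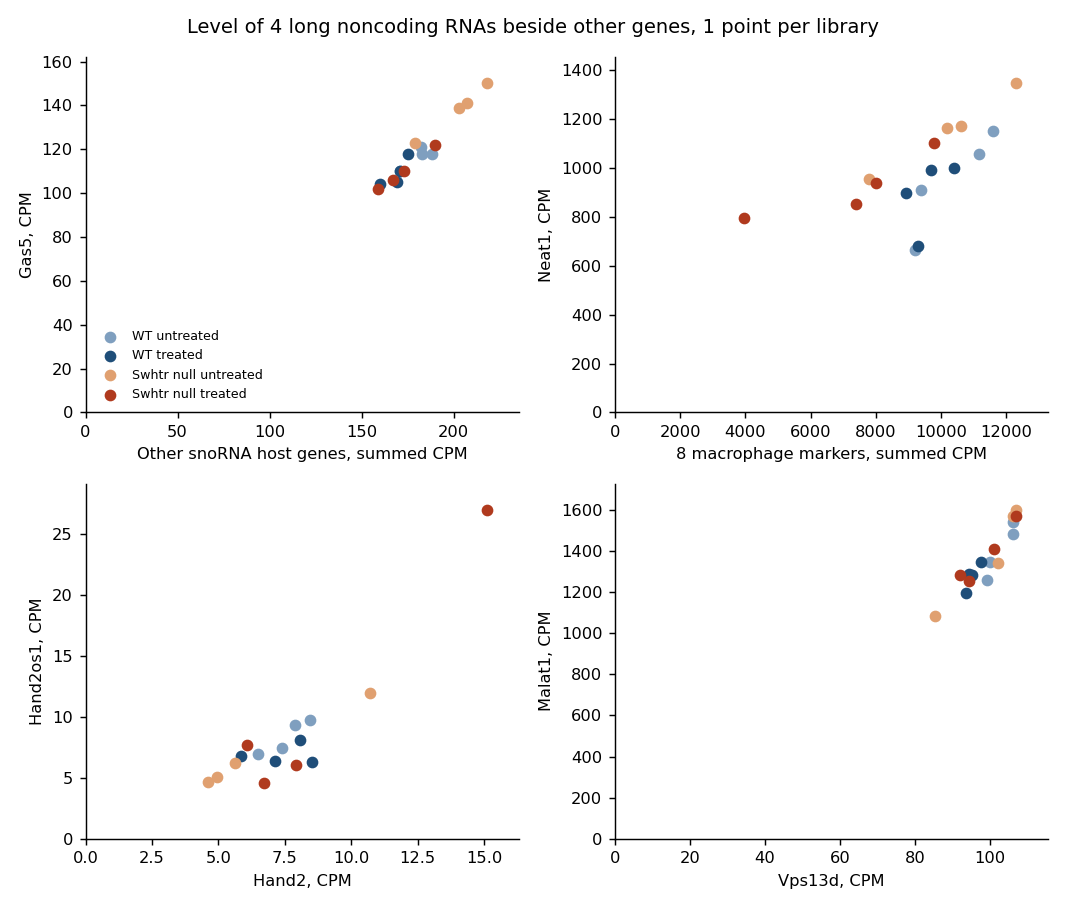
Level of 4 long noncoding RNAs (vertical axes, CPM) beside the summed CPM of other snoRNA host genes, the summed CPM of macrophage markers, Hand2 and Vps13d (horizontal axes, CPM), 1 point per library, coloured by group. Gas5 and Malat1 lie close to a line, and 1 treated Swhtr null library stands apart with 27.0 CPM of Hand2os1 and 15.1 CPM of Hand2.

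Miat (ENSMUSG00000097767, chromosome 5, 112213228 to 112229395, minus strand) is a nuclear RNA known from neurons and named after myocardial infarction. It had 23 counts in all 16 libraries together, at most 5 in a library, and 0 counts in 8 libraries. A count of 0 allows up to 0.102 to 0.169 CPM in these libraries (3 counts, counting error only). A difference in Miat between groups was not detectable at this depth. Part of its exons, 24.3%, is shared with the gene Gm26953 on the other strand, which is listed at 0 in every library.

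Gas5 (ENSMUSG00000053332, chromosome 1, 161034422 to 161038539, plus strand) was lower in treated Swhtr null slices. Its untreated Swhtr null libraries held 123, 141, 150 and 139 CPM, and the treated ones 110, 122, 106 and 102 CPM. The 2 groups did not overlap. In WT slices it measured 110, 118, 118 and 121 CPM untreated and 118, 104, 110 and 105 CPM treated. All 4 untreated Swhtr null libraries were also above all untreated WT libraries. Its log2 fold change with treatment was -0.33 in Swhtr null slices (SE 0.07, adjusted p = 0.0152), under the threshold of fold, and -0.09 in WT slices (SE 0.07, adjusted p = 0.999). The untreated genotypes differed by 0.24 (SE 0.07, unadjusted p = 0.00229, adjusted p = 0.806). The responses differed by -0.24 (95% interval -0.45 to -0.03, adjusted p = 0.715). Over all genes tested, 7.32% showed no overlap between treated and untreated Swhtr null libraries, and 2.86% none between the untreated genotypes. In a fit of the Swhtr null libraries alone the adjusted p of Gas5 was 0.103. It was 0.072 without untreated Swhtr null replicate 3, 0.0573 without untreated replicate 4 and 0.0529 without treated replicate 4.

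Snhg1 (ENSMUSG00000108414, chromosome 19, 8723475 to 8726443, plus strand), the other snoRNA host, differed less. It averaged 14.7 ± 3.71, 14.9 ± 1.45, 15.9 ± 1.11 and 14.9 ± 2.24 CPM (SD, n = 4) in untreated WT, treated WT, untreated Swhtr null and treated Swhtr null slices. All groups overlapped. The log2 fold change was 0.01 (95% interval -0.28 to 0.30) in WT and -0.10 (-0.39 to 0.19) in Swhtr null slices. One untreated WT library held 20.3 CPM, against 12.4 to 13.2 CPM in the other 3. The 8 snoRNA genes inside Snhg1 and the 10 inside Gas5 are listed at 0 counts. They cover 21.0% and 19.9% of the merged exons of the hosts, and how reads in these shared parts were counted is not given.

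Gas5 went with the other hosts of snoRNAs across the libraries. The sum of their levels and Gas5 had r = 0.97 on the log2 scale over the 16 libraries, and r = 0.95 within groups. The sum for Snhg1 gave r = 0.50. Of the 15 other snoRNA hosts tested, 13 were lower in treated WT slices, with 0 called. In treated Swhtr null slices 11 were lower and 1 fell. This was Snhg12, at 17.9, 21.0, 28.0 and 22.8 CPM in untreated and 17.2, 14.7, 14.4 and 13.1 CPM in treated libraries, without overlap (log2 fold change -0.60, SE 0.14, adjusted p = 0.0224). Zfas1 went from 22.2, 23.8, 28.0 and 27.8 CPM to 15.6, 21.2, 15.6 and 16.6 CPM, with a log2 fold change of -0.56 (SE 0.12, adjusted p = 0.0195), just under the threshold of fold. The median of the 15 hosts was -0.197 in Swhtr null and -0.085 in WT slices.

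Many snoRNA hosts and all ribosomal protein genes are known to belong to the TOP class of transcripts, which begin with a run of pyrimidines and whose translation depends on growth signals. The noncoding host Gas5 is stable while it is not translated, and is removed by nonsense-mediated decay when ribosomes read its short reading frame. Of 12 ribosomal protein genes, 12 were lower in treated WT slices, with 0 at an adjusted p under 0.05. In treated Swhtr null slices 12 were lower, 12 had an adjusted p under 0.05, and 0 passed the fold threshold. Rps6, a protein of the small ribosomal subunit, went from 736 ± 67.1 to 557 ± 9.12 CPM (SD, n = 4, log2 fold change -0.40, adjusted p = 0.00383). The median of the 12 was -0.397 in Swhtr null and -0.094 in WT slices, and 0.172 between the untreated genotypes. Of 10 factors of nonsense-mediated decay, 0 were called. The smallest p among them was that of the helicase gene Upf1, with a log2 fold change of 0.20 (adjusted p = 0.0593). The summed level of these factors and Gas5 had r = -0.67 over the 16 libraries and -0.62 within groups, and that of the ribosomal protein genes and Gas5 had r = 0.84 and 0.57. Other lists also went with Gas5 over the 16 libraries, but less within groups. The targets of hypoxia-inducible factor had r = 0.76 and 0.27, and the mitochondrially encoded mRNAs -0.66 and -0.25. The part of nonsense-mediated decay or translation in the Gas5 values was not tested.

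To show the transcript starts behind this class, 50 bases around the annotated start were read from RefSeq for Gas5, Snhg1, Snhg12 and Zfas1, with 25 bases on each side (GRCm38.p6, all on the plus strand, 5′ to 3′). Capitals mark a run of 5 or more C or T bases that begins with C within 5 bases of the start, searched on the transcribed strand alone. For Gas5 the second of 2 annotated starts is shown, and the first, upstream, has no such run. The windows are chr1:161035141-161035190, chr19:8723462-8723511, chr4:132308653-132308702 and chr2:167062909-167062958.
Gas5: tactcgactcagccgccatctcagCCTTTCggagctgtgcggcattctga
Snhg1: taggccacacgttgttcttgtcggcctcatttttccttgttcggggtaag
Snhg12: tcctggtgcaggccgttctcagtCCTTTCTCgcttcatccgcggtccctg
Zfas1: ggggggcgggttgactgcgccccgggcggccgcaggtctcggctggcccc
Gas5 and Snhg12 share the letters CCTTTC at the start, and the windows of Snhg1 and Zfas1 hold no run by this rule. RefSeq gave 17 start regions for 16 other snoRNA hosts, which are not all among the 15 hosts tested in the counts. Of these regions 41.2% held such a run, against 22.2% of 9 start regions of ribosomal protein genes and 18.3% of all 32851. The search thus found few runs at the annotated starts of the ribosomal protein genes themselves. A missing run says only that these letters are not at this annotated start.

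The genes most like Gas5 were Eif3e (r = 0.921), a subunit of a translation initiation factor, Fam162a (0.9) and Ccbe1 (0.897). Eif3e was lower by 0.27 on the log2 scale in treated Swhtr null slices (adjusted p = 0.0152), also under the fold threshold. By ranks, the snoRNA host Zfas1 came first (rho = 0.918). The protein-coding gene Rc3h1, a neighbour of Gas5, had a log2 fold change of 0.17 (adjusted p = 0.25). Zbtb37, on the other strand from the Gas5 start, had 0.17 (adjusted p = 0.518). Snhg1 starts 106 bases from Slc3a2, which encodes a chain of amino acid transporters and had a log2 fold change of -0.19 (adjusted p = 0.248). The genes most like Snhg1 were Ptrh2 (r = 0.796), Kansl1l (0.795) and Cpox (0.75).

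**Figure D4:**
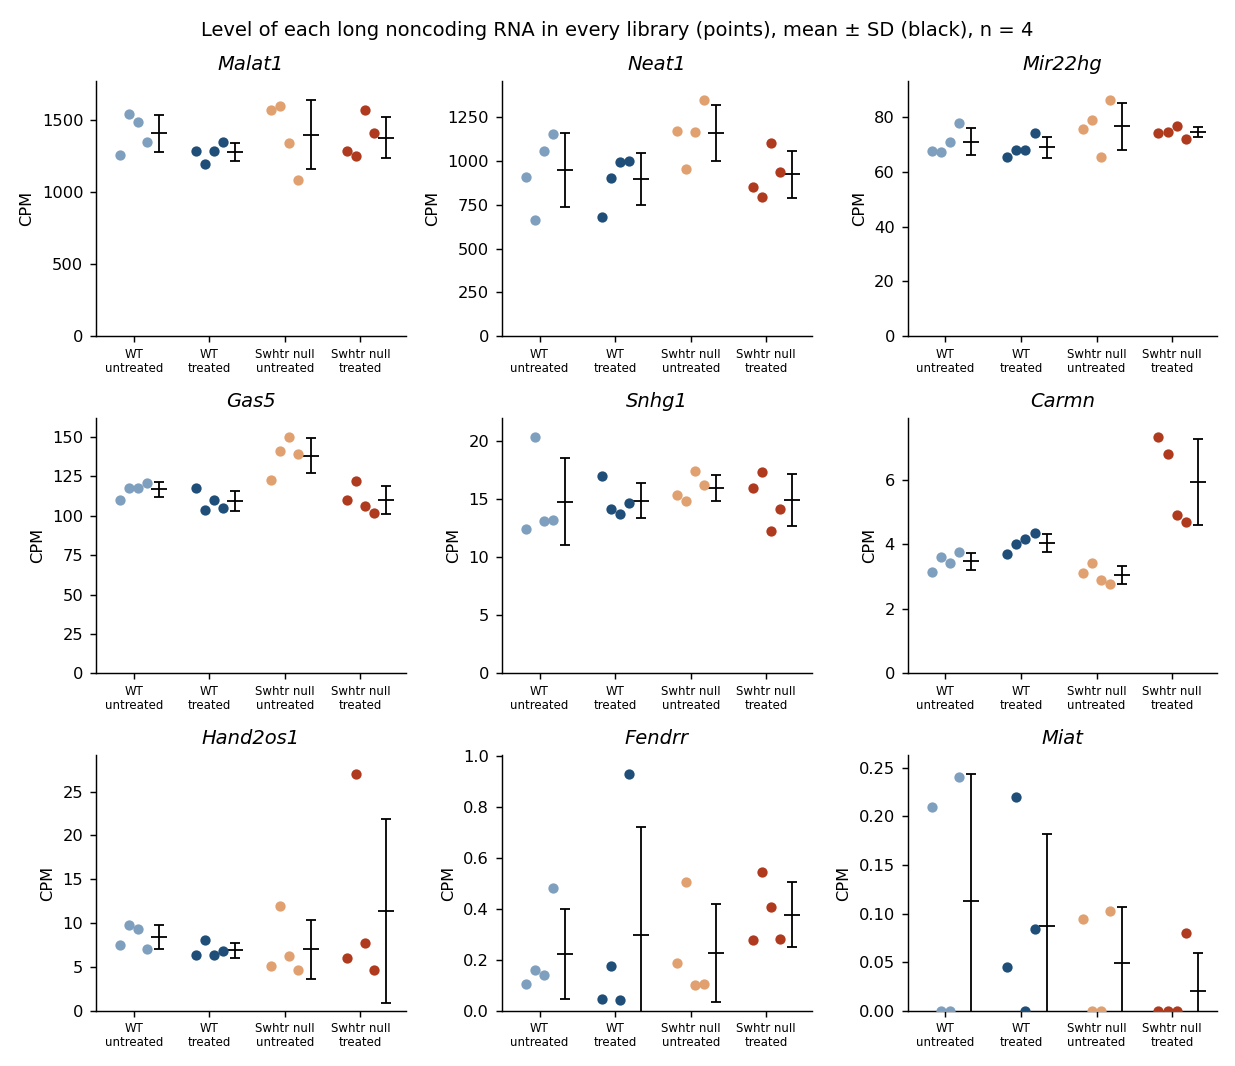
Level of each of the 9 long noncoding RNAs in CPM in every library (points) by group, with the mean and SD over 4 libraries in black (SD bars are cut off at 0). In Carmn and Gas5 the treated and untreated Swhtr null libraries do not overlap, and Hand2os1 has 1 treated Swhtr null library at 27.0 CPM.

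Mir22hg (ENSMUSG00000085148, chromosome 11, 75461539 to 75466676, plus strand) is the host of miR-22, a microRNA abundant in heart and skeletal muscle. Its hairpin lies within an exon of the host and covers 4.94% of the merged exons. The mature arms are shown because the counts measure the host RNA and not these products (RefSeq, GRCm38.p6, chr11:75463734-75463755 and chr11:75463772-75463793, plus strand). Capitals mark the seed, bases 2 to 8, which pairs with targets.
mmu-miR-22-5p: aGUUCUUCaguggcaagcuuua
mmu-miR-22-3p: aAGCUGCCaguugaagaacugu
The 2 arms do not share a seed. The hairpin gene Mir22 is listed at 0 counts in all libraries.

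Mir22hg varied little, with a ratio of 1.32 between its highest and lowest library. Untreated WT slices measured 67.7, 67.3, 70.7 and 77.9 CPM, and treated ones 65.4, 68.1, 67.9 and 74.3 CPM. Untreated Swhtr null slices measured 75.7, 79.0, 65.5 and 86.2 CPM, and treated ones 74.3, 74.5, 76.6 and 72.1 CPM. All groups overlapped between treated and untreated slices. The log2 fold change was -0.04 in WT (95% interval -0.19 to 0.11) and -0.04 in Swhtr null slices (-0.20 to 0.11), so that changes past the fold threshold lie outside both intervals. Tlcd2, which shares 10.7% of the exon length of Mir22hg on the same strand, had a log2 fold change of -0.13 in Swhtr null slices (adjusted p = 0.782). The neighbours Wdr81 and Prpf8, the latter a core protein of the spliceosome, had -0.03 and 0.10. The genes most like Mir22hg were Utp11 (r = 0.81), Slc20a1 (0.797) and Nmt2 (0.79).

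Carmn (ENSMUSG00000097324, chromosome 18, 61649625 to 61665537, minus strand) rose in treated Swhtr null slices. Its untreated Swhtr null libraries held 3.11, 3.43, 2.89 and 2.77 CPM, and the treated ones 7.33, 6.82, 4.92 and 4.70 CPM. The groups were far apart, and the treated libraries differed among themselves by more than those of any other group. Untreated WT slices measured 3.15, 3.62, 3.41 and 3.76 CPM, and treated WT slices 3.70, 4.0, 4.18 and 4.34 CPM. The WT groups overlapped, and all treated Swhtr null libraries were above all treated WT libraries. The counts behind these levels ran from 54 to 188 per library. The log2 fold change was 0.96 in Swhtr null slices (SE 0.17, adjusted p = 0.00467) and 0.22 in WT slices (SE 0.17, adjusted p = 0.999).

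The response of Carmn was larger in Swhtr null than in WT slices by 0.74 on the log2 scale (95% interval 0.25 to 1.24, unadjusted p = 0.00539), which did not pass the adjustment over all genes (adjusted p = 0.715). Between the treated genotypes the log2 difference was 0.55 (unadjusted p = 0.00316, adjusted p = 0.767), and between the untreated ones -0.19 (adjusted p = 0.951). Over all genes, 4.06% showed no overlap between the treated genotypes. The call in Swhtr null slices held without each single library, with log2 fold changes from 0.85 to 1.06 and adjusted p from 0.00397 to 0.0294. WT libraries enter this comparison only through the shared spread and scaling, and without any 1 of them the fold change stayed at 0.96. The call was lost in a fit of the Swhtr null libraries alone, with the same fold change and an adjusted p of 0.0548.

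A second long noncoding RNA of the same locus rose with Carmn. Bvht, known as Braveheart from the formation of cardiac progenitors in mouse, ends 2153 bases from Carmn and runs on the other strand. Its untreated Swhtr null libraries held 8.57, 7.59, 8.23 and 7.49 CPM, and the treated ones 12.5, 13.6, 10.4 and 11.4 CPM, without overlap (log2 fold change 0.59, SE 0.11, adjusted p = 0.00701). In WT slices it measured 7.87, 8.82, 7.47 and 7.71 CPM untreated and 9.98, 9.62, 10.6 and 11.1 CPM treated, also without overlap (log2 fold change 0.37, unadjusted p = 0.00284, adjusted p = 0.999). Over all genes tested, 3.67% showed no overlap between treated and untreated WT libraries. Between Carmn and Bvht lie the hairpin genes Mir145a and Mir143, with 338 and 181 counts over all libraries and log2 fold changes of 0.74 (SE 0.33, adjusted p = 0.253) and 1.0 (SE 0.58, adjusted p = 0.409) in Swhtr null slices. Of the 28 other named long noncoding RNAs tested, Bvht alone was called in Swhtr null slices. The nearest protein-coding genes with at least 1 CPM on either side were Csnk1a1, a protein kinase, at 0.04 (adjusted p = 0.815), and Pcyox1l at 0.23 (adjusted p = 0.313).

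**Figure D5:**
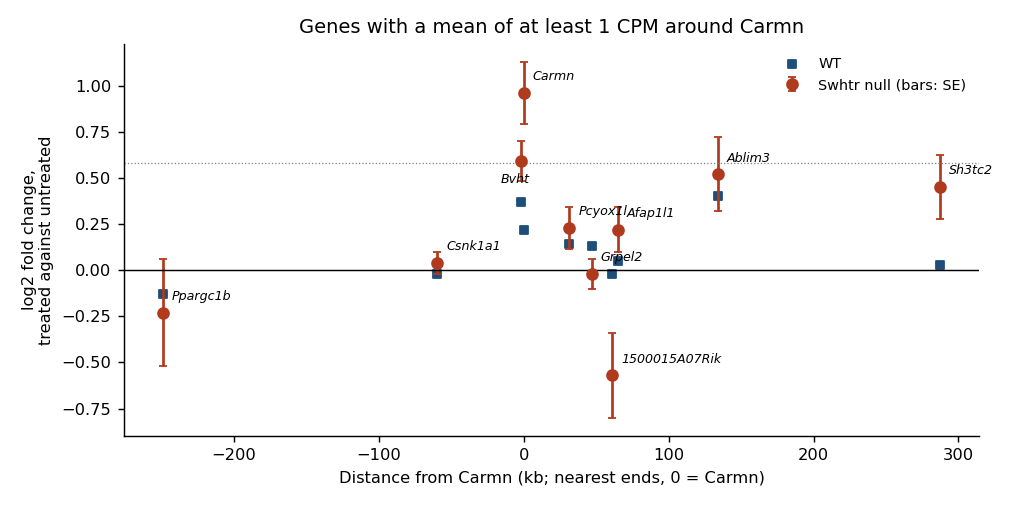
Log2 fold change with treatment (vertical axis) for genes with a mean of at least 1 CPM within 300 kb of Carmn, by distance from Carmn in kb (horizontal axis); circles with SE bars are Swhtr null and squares WT, and the dotted line marks 0.58. Carmn and Bvht lie above the line in Swhtr null slices, and Csnk1a1 lies at 0.04.

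Carmn is known as a marker of smooth muscle, so the smooth muscle genes were set beside it. Of 8 such markers, 7 were higher and 1 lower in treated Swhtr null slices, 3 had an unadjusted p under 0.05 and 0 were called. Their median log2 fold change was 0.921 there, beside 0.96 for Carmn, and -0.107 in WT slices, and the median of their differences of the responses was 1.012. Between the untreated genotypes 7 of the 8 were already lower in Swhtr null slices, with a median of -0.558 against -0.19 for Carmn. Between the treated genotypes all 8 were higher, with a median of 0.501 against 0.55 for Carmn. In Swhtr null libraries their summed level ran from 327 to 468 CPM without and from 382 to 649 CPM with treatment, with overlap. Lmod1, an actin-nucleating protein of smooth muscle, had a log2 fold change of 1.26 (SE 0.42, adjusted p = 0.148). Myh11, the smooth muscle myosin, measured 23.1, 23.7, 15.2 and 7.74 CPM untreated and 63.6, 24.7, 25.1 and 39.0 CPM treated (log2 fold change 1.12, adjusted p = 0.225). The library highest in Carmn, at 7.33 CPM, was also the highest in Myh11, and the next in Carmn, at 6.82 CPM, had the lowest Myh11 of the treated ones. The sum of the markers and Carmn had r = 0.55 over the 16 libraries and 0.45 within groups. The part of smooth muscle content in the rise of Carmn was not tested.

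The cardiomyocyte markers and macrophage markers also moved with treatment in these libraries. All 9 cardiomyocyte markers were higher with treatment in WT and in Swhtr null slices, with 0 called in either. Their median log2 fold change was 0.905 in WT and 2.771 in Swhtr null slices. Their sums were 10.9, 96.3, 64.3 and 6.88 CPM in the treated Swhtr null libraries. The macrophage sums were 7384, 3947, 9777 and 8007 CPM in the same order. Carmn and the macrophage markers had r = -0.72 over the 16 libraries, and -0.53 within groups. It was -0.4 without the 2 libraries farthest from the median of these markers. Over the 16 libraries the ribosomal protein genes (r = -0.77) and the targets of hypoxia-inducible factor (r = -0.76) went with Carmn as closely. Within groups they had r = -0.09 and -0.3. The part of cardiomyocyte and macrophage content in the Carmn values was not tested. Genes whose level followed Carmn closely included Tbc1d2b (r = 0.896) and Sh3pxd2a (0.89), a scaffold protein of podosomes. Carmn and Bvht had r = 0.89, and 0.61 within groups.

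Hand2os1 (ENSMUSG00000100510, chromosome 8, 57281117 to 57324233, minus strand) depended on 1 library. It measured 7.45, 9.77, 9.34 and 6.98 CPM in untreated and 6.32, 8.08, 6.35 and 6.78 CPM in treated WT slices. Swhtr null slices measured 5.04, 12.0, 6.24 and 4.67 CPM untreated and 6.04, 27.0, 7.67 and 4.62 CPM treated. The value of 27.0 CPM rests on 743 counts, and the other 3 treated Swhtr null libraries, from 4.62 to 7.67 CPM, overlapped the untreated ones. The log2 fold change in Swhtr null slices was 0.71 (SE 0.49, adjusted p = 0.513), and it was -0.19 without that library. In WT slices it was -0.28 (SE 0.50, adjusted p = 0.999).

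Hand2, whose gene overlaps Hand2os1 on the other strand over 3.59% of its exons, had its highest value in the same library. It measured 7.92, 15.1, 6.07 and 6.72 CPM in treated and 4.94, 10.7, 5.64 and 4.62 CPM in untreated Swhtr null libraries. The second untreated library, the next highest in Hand2os1, was also the next highest in Hand2. Over the 16 libraries r was 0.87, and 0.68 without the 2 libraries farthest from the median of Hand2. Which reads came from which strand is not known. The same treated library had the highest cardiomyocyte marker sum, 96.3 CPM, and the lowest macrophage marker sum, 3947 CPM, and the part of cell content in its Hand2os1 value was not tested. Among the 6 genes listed as partner transcription factors (Foxf1, Hand2, Gata4, Gata6, Tbx5 and Myocd), 5 were higher in treated Swhtr null slices and 0 were called. The neighbour Sap30, a subunit of a histone deacetylase complex 158474 bases away, fell in Swhtr null slices (log2 fold change -0.79, SE 0.16, adjusted p = 0.0122). The genes most like Hand2os1 were Olfml2b (r = 0.931), Garnl3 (0.926) and Adgra2 (0.917).

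Fendrr (ENSMUSG00000097336, chromosome 8, 121054882 to 121083110, minus strand) had 103 counts in all and at least 10 counts in 4 libraries. It reached 22 counts in 1 treated WT library and 1 to 4 counts in the other 3 of that group. Its log2 fold change was 0.42 (95% interval -1.25 to 2.09) in WT and 0.77 (-0.88 to 2.41) in Swhtr null slices, and a change within these intervals was not detectable at this depth. It was higher after treatment in 4 of 4 Swhtr null pairs of the same replicate number, as were 12.3% of all genes tested. Foxf1, whose gene starts 1276 bases away, was low as well. In Swhtr null slices it averaged 1.83 ± 0.231 CPM without and 1.36 ± 0.502 CPM with treatment (SD, n = 4, log2 fold change -0.42, adjusted p = 0.48).

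A further pair of lists bears on these RNAs, since Neat1 is a known target of hypoxia-inducible factor and several of the hosts respond to p53. Treated slices were collected after 7 days back at 21% oxygen. All 12 targets of hypoxia-inducible factor were lower in treated than in untreated Swhtr null slices and 5 fell, among them Pgk1 (log2 fold change -0.60, adjusted p = 0.00425), Ankrd37 (-1.39, adjusted p = 0.00948) and Adm (-0.67, adjusted p = 0.0303), which encode a glycolytic enzyme, an ankyrin repeat protein and the peptide adrenomedullin. In WT slices 12 were lower and 0 were called. Between the untreated genotypes all 12 were higher in Swhtr null slices, with 0 called and a median log2 fold change of 0.279. Between the treated genotypes the median was -0.07. Of 10 p53 targets, 0 were called in Swhtr null slices and 7 were higher, as in WT slices. Aen, a nuclease gene, had the smallest p in Swhtr null slices (log2 fold change 0.45, adjusted p = 0.0165). Of the remaining marker lists in Swhtr null slices, 1 of 8 fibroblast markers rose (Dpt, log2 fold change 0.97, adjusted p = 0.0486). Of 5 mesothelial markers, 1 fell (Krt19, -2.25, adjusted p = 0.00397). The mesothelial list as a whole was mixed, with 3 higher, 2 lower and a median log2 fold change of 0.12. Of 6 endothelial markers 0 were called, and 1 of 13 mitochondrially encoded mRNAs rose (mt-Nd4l, 0.60, adjusted p = 0.0305).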

How the data were processed

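RNA of 16 heart slice cultures was sequenced, 4 libraries in each of 4 groups. The authors aligned reads to mm10 with STAR and counted them per Ensembl gene with GenomicAlignments, and the deposited values are raw counts. Strand use and the handling of reads shared by overlapping genes are not given in the sources used here. Symbols, positions and exon lengths came from the GRCm38 annotation.

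Genes with at least 10 counts in total (24971 of 55487) were tested over all 16 libraries with edgeR 4.0.16 in R 4.3.3 (TMM, robust quasi-likelihood test), with Benjamini-Hochberg adjustment over all genes. Calls needed an adjusted p below 0.05 together with a change of more than 0.58 on the log2 scale (1.49-fold) in either direction. CPM use TMM library sizes. Genes most like a long noncoding RNA were the 3 with the highest correlation of log2 CPM among genes with a mean of at least 5 CPM. Named genes of other lists were those called, up to 3 by smallest p, or else 1 or 2 with the smallest p, and the nearest protein-coding genes. Some genes that these rules select are not reported here. Members and lists were chosen with earlier results of these data known. The 17830351 to 29941903 counts per library set the precision, and limits for a count of 0 cover counting error only. Alternatives were DESeq2 1.42.0, limma-voom with quality weights per library (limma 3.58.1, called limma-voom here), and other size factors and filters. Further ones were the compared groups alone, no fold threshold, the replicate number as a block, and each library left out. The test was checked on simulated data.

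Deviations from the group means of same-numbered treated and untreated libraries had correlations of 0.147, 0.583, 0.253 and 0.387 in Swhtr null slices, all above 0.1, and of -0.0819, -0.0501, 0.157 and 0.319 in WT slices. Swhtr null libraries of different number ran from -0.482 (untreated 2 with treated 3) to 0.338 (untreated 4 with treated 3). WT libraries of different number reached 0.382 (untreated 2 with treated 1). Same-numbered libraries of the 2 genotypes, which cannot share a mouse, ran from 0.0224 to 0.371 untreated and from -0.00237 to 0.319 treated. Whether the numbers mark pairs is thus not settled. Pairs of the same number are described for Swhtr null slices only, and the replicate block was fitted in both genotypes. In the treatment comparisons and their difference the block was the number within each genotype. In the comparisons between genotypes it was the number shared by both. No 2 libraries agreed within sampling noise.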

Additional observations from a re-analysis of the deposited data

Results flagged for a closer look

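In each group of 4 libraries, the gap between the highest or lowest library and its neighbour was divided by the range of the group, and libraries whose ratio passed Dixon's critical value for 4 samples are given here. Of 36 groups tested, 5 held such a library. Chance gives about 1 in 20 groups where values follow a normal distribution, which the low counts of Miat and Fendrr do not. Hand2os1 stood out in treated Swhtr null replicate 2, at 27.0 CPM (ratio 0.863). Snhg1 stood out in untreated WT replicate 2, at 20.3 CPM (ratio 0.897). Fendrr stood out in untreated WT replicate 4, with 10 counts (ratio 0.86), and in treated WT replicate 4, with 22 counts (ratio 0.849). Miat stood out in treated Swhtr null replicate 4, with 2 counts against 0 in the other 3 libraries (ratio 1.0). Any count beside 3 libraries at 0 gives this ratio.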

How the results depend on the processing

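Of 301 log2 fold changes recomputed under other settings, 288 kept their direction and their side of the threshold, 12 turned and 1 lost its call. Of 720 recomputed with 1 library left out, 47 turned, and none of the others changed its call. The 720 include fits that left out a library of a group not compared. Carmn was called in Swhtr null slices with DESeq2, limma-voom, other size factors, both other filters, the replicate block and each of 16 libraries left out. With the libraries of the compared groups alone, 0 of the 9 RNAs were called there (adjusted p = 0.0548 for Carmn), and with no fold threshold 2 were, Carmn and Gas5. Over all genes, the calls in Swhtr null slices numbered 155, with DESeq2 464, with no fold threshold 544, with the compared groups alone 62, with the replicate block 616, and with 1 library left out 22 (untreated Swhtr null replicate 4) to 574 (untreated replicate 2). In WT slices the replicate block gave 19 calls instead of 0 and in the difference of the responses 52, with none of the 9 RNAs among them. It changed no call of the 9. Signs turned with limma-voom in WT slices for Miat (0.1259) and Fendrr (-0.4719), in Swhtr null slices for Malat1 (0.02443), between the treated genotypes for Hand2os1 (-0.02727), Gas5 (-0.03798) and Snhg1 (-0.0593), and in the difference of the responses for Mir22hg (0.02943). With the replicate block they turned for Fendrr in WT slices (-0.00973) and between the untreated genotypes (0.1519), for Snhg1 between the treated genotypes (-0.008533) and for Mir22hg in the difference (0.003445), and with DESeq2 for Fendrr between the untreated genotypes (0.00136). The cause was not tested. Where leaving out 1 library turned a sign, the log2 fold changes ranged as follows. In the response of WT slices these were Neat1 from -0.2208 to 0.02609, Miat from -1.279 to 0.3143, Fendrr from -1.295 to 1.123, Snhg1 from -0.06098 to 0.2038, Mir22hg from -0.07847 to 0.007806. In the response of Swhtr null slices these were Malat1 from -0.1254 to 0.05029, Hand2os1 from -0.1862 to 1.096, Mir22hg from -0.1104 to 0.01911. In the untreated genotypes these were Malat1 from -0.08027 to 0.09545, Fendrr from -0.7401 to 0.6921. In the treated genotypes these were Neat1 from -0.06144 to 0.1068, Fendrr from -0.02649 to 2.047, Hand2os1 from -0.1723 to 0.9859, Gas5 from -0.05214 to 0.04764, Snhg1 from -0.08679 to 0.08696. In the difference of the responses these were Miat from -2.946 to 0.1345, Fendrr from -0.3577 to 2.057, Mir22hg from -0.06999 to 0.05953. Miat and Fendrr were too low for a fold change to be read at this depth.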
